A study of Mus musculus with 8 samples.

Results

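A set of 30 genes was followed in mouse liver. It held enzymes that build cholesterol from acetyl-CoA and the transcription factor SREBP2 with the proteins that hold it back. A few genes grouped here as sterol transport and esterification completed it. The 30 genes were given by name, with no threshold on their values, and were looked up by symbol among the 49585 genes of the count data. All 30 were found, and 29 of them had enough reads to be tested by edgeR, as did 16496 genes in all. The exception was Npc1l1, the sterol importer of the intestine, which had at most 1 count in any of the 8 livers.

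Cholesterol is made by hepatocytes along a route in which acetyl-CoA is turned into mevalonate and isoprenoids, these into squalene, and squalene into lanosterol and cholesterol. When sterol in the endoplasmic reticulum is low, SCAP escorts SREBP2 to the Golgi, where it is cut, and the released fragment enters the nucleus and activates most of the genes of the route. When sterol is plentiful, INSIG1 and INSIG2 keep the pair in the endoplasmic reticulum. For that reason the genes of the route usually move together in liver, and they respond to feeding, diet and the time of day.

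The RNA came from whole livers of males that were fed a high-fat diet deficient in choline (HFCD) for 3 months from an age of 21 days. The 3 LP+/+ controls are labelled Alb-Cre0 and carry a Trp53 allele that was not recombined, Trp53fl/+ in replicates 1 and 2 and Trp53wm-R245W/+ in replicate 3, whereas the study's text gives LP+/+ as wild-type for Trp53 with Alb-Cre in its results and allows littermates with or without Cre as controls in its methods. The 2 LPfl/+ livers (Alb-CreTG, Trp53fl/+) lost 1 Trp53 allele, and the 3 LP245/+ livers (Alb-CreTG, Trp53wm-R245W/+) switched 1 allele from wild-type to the p53R245W missense mutant. The Alb-Cre transgene recombines in hepatocytes and cholangiocytes, so that the other cells of the liver kept both alleles. The library numbers fall into 2 series. The first series holds the 3 LP245/+ livers and LP+/+ replicates 2 and 3, and the second holds LP+/+ replicate 1 and both LPfl/+ livers.

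Each liver had between 26304526 and 31370714 counts, and 3 counts, the floor of detection, were between 9.56e-06% and 1.14e-05% of a library. Normalized Trp53 counts were 226, 258 and 202 in LP+/+ replicates 1, 2 and 3, 127 and 178 in LPfl/+ and 316, 294 and 193 in LP245/+, and total counts per gene do not separate a recombined allele from an intact one. Of 6 hepatocyte markers, 5 were matched, and their summed normalized counts were between 2730762 and 3968641 in every liver. The values below are normalized read counts, which are counts divided by DESeq2 size factors, and log2 fold changes are those of edgeR's quasi-likelihood test with their standard errors (SE) and Benjamini-Hochberg adjusted p-values, called edgeR adjusted p. In bulk tissue, fewer cells of a type and less RNA per cell cannot be told apart.

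Upstream sequence was read for the members because the genes that stood apart together are described as SREBP2 targets. The RefSeq promoter table (GRCm38.p6) held 24 of the 30 members with 31 windows of 250 bases before and 50 bases after a start site. Both strands were searched for TCACNCCAC (a form of the sterol regulatory element that SREBP2 binds), CCAAT (bound by NF-Y) and GGGCGG (bound by Sp1). TCACNCCAC was present in 1 of the 31 windows (3.23%), that of Hmgcs1, and in 1.24% of all 32817 windows. CCAAT was present in 21 of 31 (67.7%) compared with 37.4% of all windows, and GGGCGG in 22 of 31 (71.0%) compared with 35.6%. A match of letters is a description of the window and not a bound site. Of the windows without an annotated exon, 4 upstream stretches are shown, 3 of genes more than 2-fold higher in the control liver described next than in the other controls, Hmgcs1 (chr13:119690101-119690350, plus strand), Mvd (chr8:122443423-122443672, minus strand) and Pmvk (chr3:89454291-89454540, plus strand), and 1 of a gene that was less than 2-fold higher there, Ebp (chrX:8193513-8193762, minus strand). Capitals mark CCAAT or its complement ATTGG and, in Hmgcs1 alone, TCACNCCAC, whose first base lies at position -137 from the start site. No motif overlapped another in these 4 stretches.
Hmgcs1: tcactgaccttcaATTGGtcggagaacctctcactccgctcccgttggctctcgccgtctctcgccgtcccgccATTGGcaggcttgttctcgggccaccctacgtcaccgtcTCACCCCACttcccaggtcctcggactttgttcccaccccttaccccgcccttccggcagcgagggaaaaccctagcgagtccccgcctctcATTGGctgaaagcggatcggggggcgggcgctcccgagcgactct
Mvd: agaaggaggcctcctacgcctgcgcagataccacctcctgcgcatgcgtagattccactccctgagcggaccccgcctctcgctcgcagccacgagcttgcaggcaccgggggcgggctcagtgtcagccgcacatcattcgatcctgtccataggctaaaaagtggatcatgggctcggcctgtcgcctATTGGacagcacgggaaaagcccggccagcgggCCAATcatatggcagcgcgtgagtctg
Pmvk: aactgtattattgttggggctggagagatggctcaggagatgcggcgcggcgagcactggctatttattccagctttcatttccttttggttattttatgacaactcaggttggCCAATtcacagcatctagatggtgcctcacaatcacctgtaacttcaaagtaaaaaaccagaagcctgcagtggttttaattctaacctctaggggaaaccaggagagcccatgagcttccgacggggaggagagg
Ebp: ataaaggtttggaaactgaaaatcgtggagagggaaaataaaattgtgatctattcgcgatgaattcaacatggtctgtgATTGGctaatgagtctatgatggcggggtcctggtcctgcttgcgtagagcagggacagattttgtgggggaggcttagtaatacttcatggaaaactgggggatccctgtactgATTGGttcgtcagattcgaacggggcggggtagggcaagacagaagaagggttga

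In a single control liver, LP+/+ replicate 1, most of the route stood above the other 7 livers, whichever genotype these had. LP+/+ replicate 1 was the highest of the 8 livers for 23 of the 29 members tested, and over all genes tested it was the highest for 14.0%. It was more than 2-fold above the mean of LP+/+ replicates 2 and 3 for 17 of the 29 (58.6%), compared with 4.24% of all genes. The median member was 2.12-fold above that mean, a log2 difference of 1.08, and the median of all genes was 0.00. The counts of the 30 genes added up to 0.492% of the library in LP+/+ replicate 1 and to between 0.243% and 0.323% in the other livers. This liver was singled out with results of these data in view, so its position is a description.

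**Figure D1:**
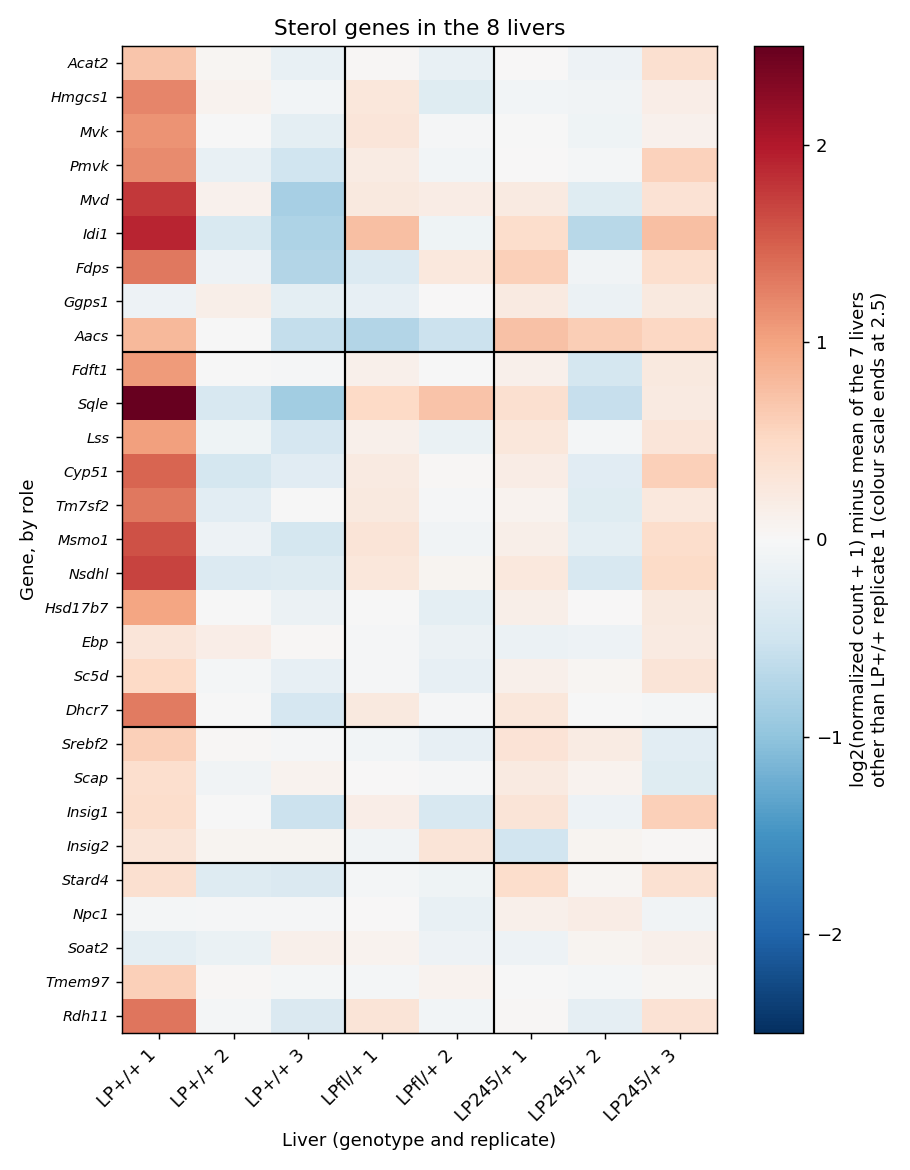
Each row is 1 of the 29 sterol genes tested, ordered by role, and each column is 1 liver. The colour gives the log2(normalized count + 1) minus the mean of the 7 livers other than LP+/+ replicate 1 and ends at 2.5 on either side, so that Sqle in LP+/+ replicate 1 lies beyond it. LP+/+ replicate 1 is the column with the highest value in 23 of the 29 rows.

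The steps from squalene to cholesterol showed it most evenly, with LP+/+ replicate 1 highest for all 11 genes. Sqle (ENSMUSG00000022351.14, chr15:59315077-59331192 of GRCm38, plus strand) encodes squalene monooxygenase, which puts the first oxygen on the sterol skeleton and is a rate-limiting step of the route. Its normalized counts were 3535, 274 and 198 in LP+/+ replicates 1, 2 and 3, 507 and 587 in the LPfl/+ livers and 473, 242 and 422 in the LP245/+ livers. LP+/+ replicate 1 was 15.0-fold above the mean of the other 2 controls and 6.03-fold above the next highest liver, LPfl/+ replicate 2, while the other 7 livers spanned 2.97-fold from the lowest to the highest. Nsdhl (ENSMUSG00000031349.4), one of the enzymes that remove the methyl groups at carbon 4, gave the same picture at a smaller size. The LP+/+ livers had 2775, 678 and 683 normalized counts of Nsdhl in replicate order, the LPfl/+ livers 1034 and 889.6 and the LP245/+ livers 1019.9, 644 and 1183. LP+/+ replicate 1 was 4.08-fold above the mean of replicates 2 and 3. Without it, both LPfl/+ livers lay above both remaining controls, as they did for 22.6% of all genes, and the LP245/+ livers overlapped either group.

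Msmo1 (ENSMUSG00000031604.10), the oxidase that acts on the same methyl groups, followed it. Msmo1 was measured at 6250.0, 1874 and 1526 normalized counts in LP+/+ replicates 1 to 3, at 2558 and 1925 in LPfl/+ and at 2273, 1747 and 2804 in LP245/+. Dhcr7 (ENSMUSG00000058454.15) encodes the reductase of the last step to cholesterol. For Dhcr7, normalized counts of 2139, 865 and 649 in LP+/+ (replicates 1, 2 and 3) stood beside 1033 and 847 in LPfl/+ and 1054, 867 and 837 in LP245/+. For both genes the lowest liver was LP+/+ replicate 3, and the control group therefore held both ends of the range. Cyp51, the lanosterol demethylase, had a fold of 3.52 over the other controls, Tm7sf2, a sterol reductase, 2.74, Lss, which closes squalene epoxide into lanosterol, 2.44, Fdft1, which makes squalene, 2.11, and Hsd17b7, a ketosteroid reductase, 2.10. Sc5d, the sterol desaturase, had a fold of 1.54, and Ebp, the sterol isomerase, 1.15. These 2 were, with 3855 and 2533 normalized counts per kb of exon in the median liver, the most abundant genes of the step from squalene to cholesterol, whereas Sqle had 80.7 per kb.

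**Figure D2:**
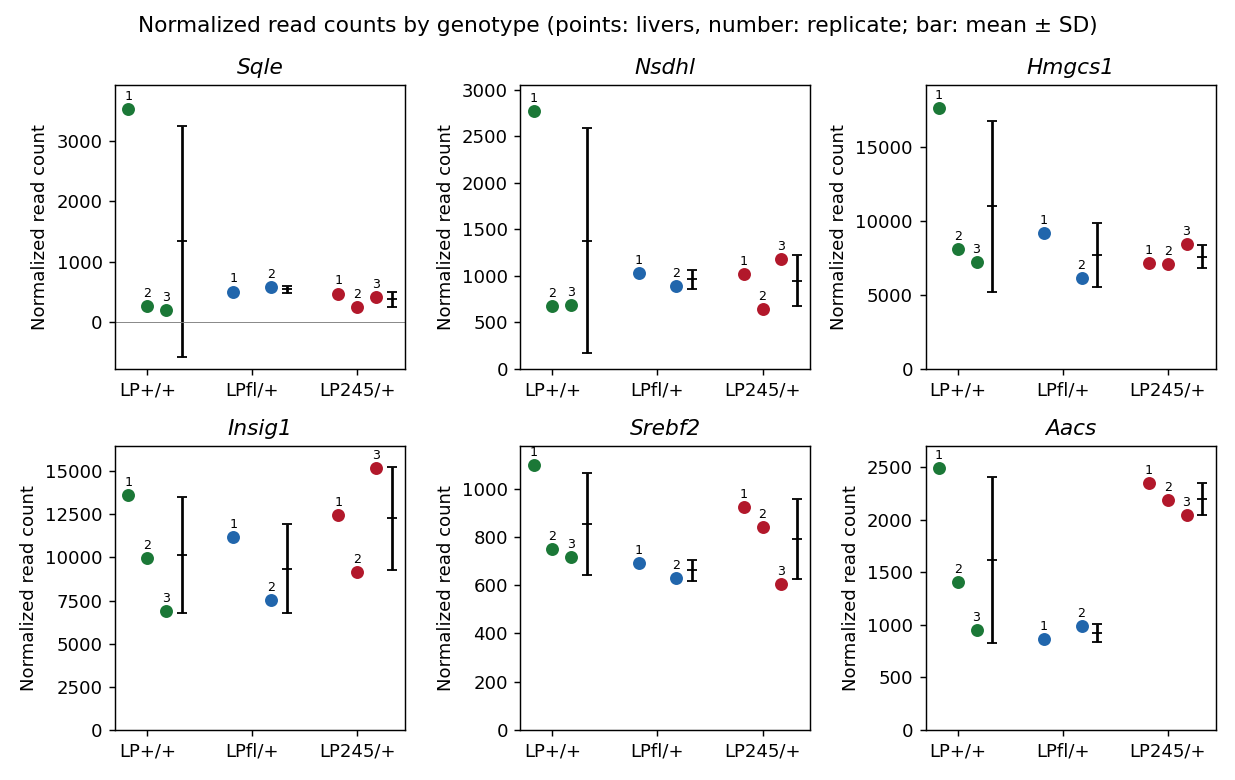
Normalized read counts (linear axes) of Sqle, Nsdhl, Hmgcs1, Insig1, Srebf2 and Aacs are plotted by genotype, 1 point per liver numbered by replicate, with the mean ± SD of the group beside it. In Sqle the SD bar of LP+/+ passes below 0 because 1 liver, at 3535, lies far above the other 2, at 274 and 198. In Aacs both LPfl/+ livers lie below the 3 LP245/+ livers.

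Among the 9 genes of the mevalonate and isoprenoid steps, LP+/+ replicate 1 was the highest liver for 8. Hmgcs1, the synthase that makes HMG-CoA, is the gene whose upstream stretch holds TCACNCCAC. Its normalized counts were 17690.0, 8101 and 7219 in LP+/+ replicates 1, 2 and 3, 9234 and 6167 in the LPfl/+ livers and 7194, 7129 and 8484 in the LP245/+ livers. LP+/+ replicate 1 was 2.31-fold above the mean of the other controls, and the other 7 livers lay within 1.50-fold of each other. Idi1, the isomerase of isopentenyl diphosphate, had the largest fold of this group, 5.55. The LP+/+ livers had 589, 120.1 and 92.2 normalized counts of Idi1 in replicate order, the LPfl/+ livers 265 and 145 and the LP245/+ livers 215, 97.0 and 266. Mvd, the decarboxylase that ends the mevalonate steps, was 4.15-fold above the other controls. Mvd was measured at 939, 297 and 155 normalized counts in LP+/+ replicates 1 to 3, at 326 and 316 in LPfl/+ and at 324, 223 and 354 in LP245/+. The folds were 3.29 for Fdps, which makes farnesyl diphosphate, 2.87 for Pmvk and 2.37 for Mvk, the mevalonate kinases, 2.12 for Aacs, which makes acetoacetyl-CoA from ketone bodies, and 1.70 for Acat2, the thiolase that begins the route. The exception was Ggps1, whose product feeds protein prenylation, at 0.95-fold. Of the 76-base words in the transcripts of Acat2, Idi1, Fdps and Fdft1, 33.7%, 23.5%, 23.4% and 21.6% also occurred in other annotated genes, so their counts are less certain than those of Sqle, Nsdhl and Msmo1, which share none.

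SREBP2 and its regulators differed less. Srebf2 (ENSMUSG00000022463.7, chr15:82147181-82205379, plus strand) encodes SREBP2, which is controlled mainly by cleavage of the protein. For Srebf2, normalized counts of 1099, 749 and 716 in LP+/+ (replicates 1, 2 and 3) stood beside 693 and 632 in LPfl/+ and 925, 843 and 605 in LP245/+. LP+/+ replicate 1 was the highest liver, 1.50-fold above the mean of the other controls, and LP245/+ replicate 3 the lowest. Scap was 1.33-fold above. Insig1, itself a target of SREBP2, was highest in another liver. Its normalized counts were 13613, 9948 and 6889 in LP+/+ replicates 1, 2 and 3, 11176 and 7541 in the LPfl/+ livers and 12469, 9146 and 15172 in the LP245/+ livers. LP245/+ replicate 3 lay above LP+/+ replicate 1, and each genotype overlapped the others. Insig2, which is not known as a target of SREBP2 in liver, had a fold of 1.18.

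In the group of sterol transport and esterification, Rdh11, a retinol dehydrogenase often grouped with the SREBP targets, had a fold of 2.89. Tmem97, a binding partner of NPC1, had a fold of 1.53, and LP+/+ replicate 1 was highest for both. Stard4, which moves cholesterol between membranes, was 1.68-fold above the other controls but not above LP245/+ replicate 1. Npc1, which exports cholesterol from lysosomes, had a fold of 0.98. Soat2, which esterifies cholesterol, was lowest of the 8 livers in LP+/+ replicate 1, at 0.85-fold of the other controls. The members that did not have their highest value in this liver were thus Ggps1, Insig1, Insig2, Stard4, Npc1 and Soat2.

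A term for the library series was fitted beside the genotype. LP+/+ is the only genotype with livers in both series, and the term sets its replicate 1 against the other 2, so the series and the liver cannot be told apart. Because this arm is 1 liver that was singled out with its values in view, the fitted values are a description of that liver, here and for the neighbouring pathways below, and no adjusted p is given for them. Of the 29 members, 16 went past the cutoff of the study's methods, a change of 1 or more on the log2 scale in either direction with an adjusted p up to 0.05. All 16 were higher in the second series, as were 0.721% of all genes, and 22 of the 29 had an unadjusted p below 0.05, compared with 9.98% of all genes. The number was 9 without LP+/+ replicate 2 and 4 without LP+/+ replicate 3, so it depended on which controls remained. By role, the 16 were 7 of 9 mevalonate and isoprenoid genes, 8 of 11 genes from squalene to cholesterol, 0 of 4 in the SREBP2 group, where 1 had an unadjusted p below 0.05, and 1 of 5 carriers. The fitted log2 difference was 3.91 (SE 0.31) for Sqle, 2.03 (SE 0.26) for Nsdhl, 1.88 (SE 0.25) for Msmo1, 1.50 (SE 0.20) for Dhcr7 and 0.59 (SE 0.22) for Srebf2. The LPfl/+ livers of the same series, which differ in genotype, both lay more than 6-fold below LP+/+ replicate 1 for Sqle. Their 30 genes took 0.301% and 0.282% of the library. Both lay above LP+/+ replicates 2 and 3 for 8 members, Sqle, Nsdhl and Msmo1 among them, and below them for 2. Over all genes, 22.6% were higher and 24.4% lower in this way.

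The comparison of LP245/+ with LP+/+ asks what the missense mutant changes against controls. The cutoff of the study's methods was used, a change of 1 or more on the log2 scale in either direction with an adjusted p up to 0.05. By edgeR, 0 of the 29 members passed the cutoff (0.00606% of all genes did) and 0 had an unadjusted p below 0.05 (5.93% of all genes), and DESeq2 called 0. By sign, 22 of 29 members were lower in LP245/+, with a median log2 fold change of -0.22, and the median of all genes was 0.00. Sqle had the smallest p, with a log2 fold change of -1.81 (SE 0.90, edgeR adjusted p = 0.831). Hmgcs1 had -0.52 (SE 0.31, edgeR adjusted p = 0.837), and Srebf2 had -0.10 (SE 0.19, edgeR adjusted p = 0.955). Among the 4 members with the smallest p, 2 had the opposite sign, Aacs with 0.45 (SE 0.28, edgeR adjusted p = 0.839) and Stard4 with 0.36 (SE 0.20, edgeR adjusted p = 0.831). No member separated the 2 genotypes, while over all genes 6.03% were higher and 5.79% lower without overlap.

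The sign of most members in this comparison depended on LP+/+ replicate 1. Without it, 2 of 29 members were lower in LP245/+ and the median was 0.28, and with the livers of the first series alone 3 were lower and the median was 0.27. By edgeR, 0 members were called without it, and 10 of 29 were at an unadjusted p below 0.05, compared with 6.70% of all genes. Aacs then had a log2 fold change of 0.91 (SE 0.16, edgeR adjusted p = 0.257) and Stard4 of 0.65 (SE 0.13, edgeR adjusted p = 0.295), and Sqle turned from -1.81 to 0.70 (SE 0.26, edgeR adjusted p = 0.711). The 3 LP245/+ livers lay above both remaining controls for 8 members, Aacs, Cyp51, Fdps, Hsd17b7, Lss, Pmvk, Sc5d and Stard4, and below them for 0. Over all genes, 11.6% were higher and 12.0% lower in this way.

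**Figure D3:**
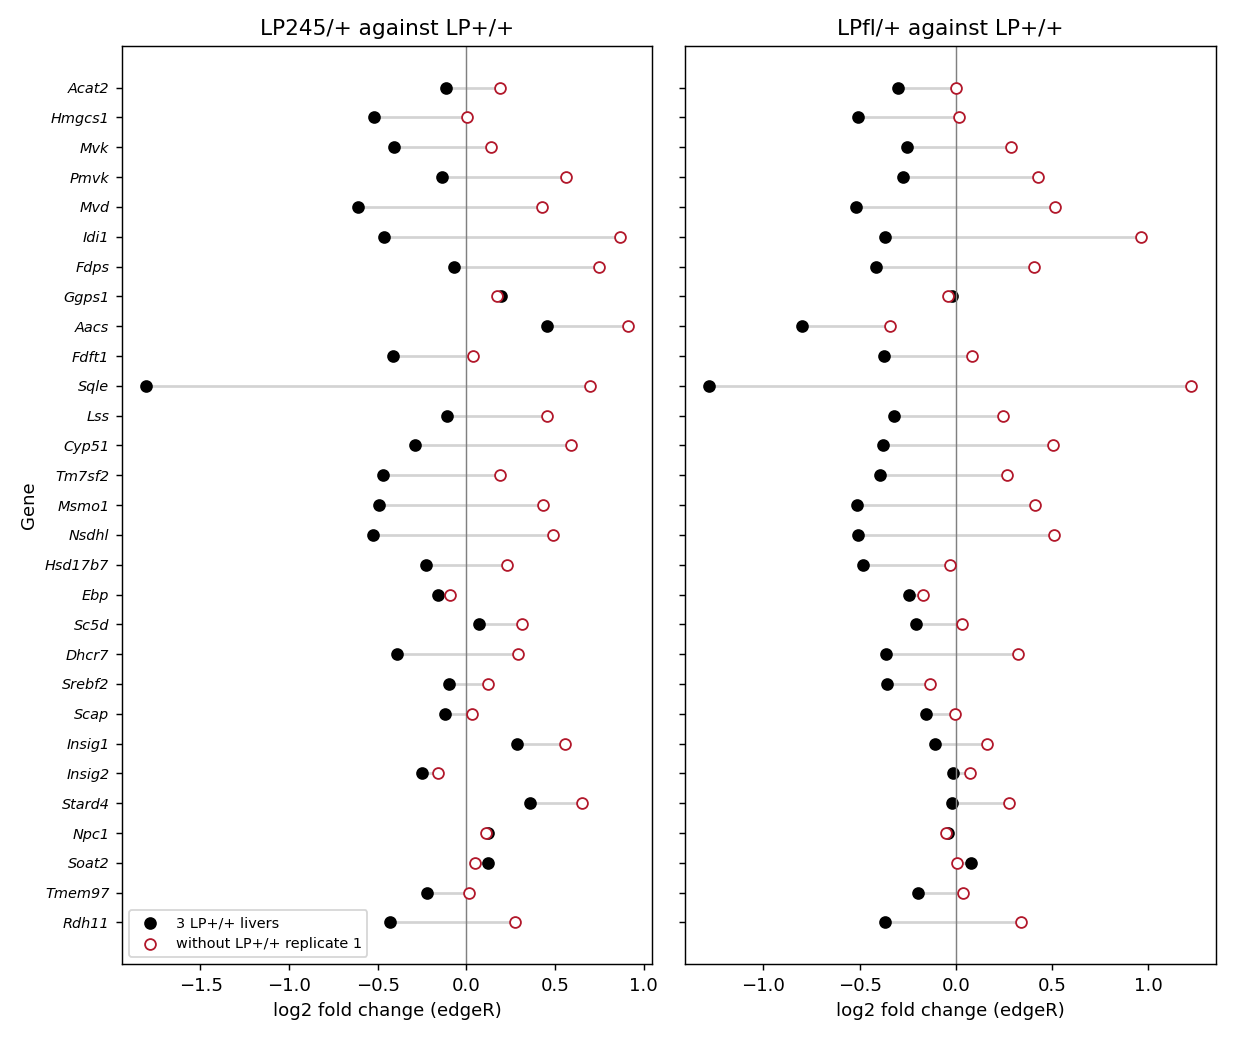
For each of the 29 sterol genes, the log2 fold change of edgeR is plotted for LP245/+ against LP+/+ and for LPfl/+ against LP+/+, filled with all 3 LP+/+ livers and open without LP+/+ replicate 1. Grey lines join the 2 values of a gene. The median moved from -0.22 to 0.28 in the first comparison and from -0.36 to 0.16 in the second.

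LPfl/+ was compared with LP+/+ to describe the loss of 1 allele, and this comparison shares its controls with the one above. By edgeR, 0 of 29 members passed the cutoff (0% of all genes) and 1 had an unadjusted p below 0.05 (6.89% of all genes), and DESeq2 called 0. By sign, 28 of 29 members were lower in LPfl/+, with a median log2 fold change of -0.36, compared with 50.2% of all genes and a median of -0.001. Aacs had the smallest p, with a log2 fold change of -0.80 (SE 0.32, edgeR adjusted p = 0.704), followed by Hsd17b7 with -0.48 (SE 0.29, edgeR adjusted p = 0.775). Ebp and Srebf2 were the 2 members for which both LPfl/+ livers lay below all 3 controls, as did 13.2% of all genes. The LP+/+ livers had 7201, 6603 and 5940.1 normalized counts of Ebp in replicate order, the LPfl/+ livers 5764 and 5291 and the LP245/+ livers 5304, 5352 and 6875. Ebp had a log2 fold change of -0.24 (SE 0.15, edgeR adjusted p = 0.777) and Srebf2 of -0.36 (SE 0.22, edgeR adjusted p = 0.778).

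Here too the sign depended on LP+/+ replicate 1. Without it, 7 of 29 members were lower in LPfl/+ and the median was 0.16. The limit given above for leaving out this liver holds here too. Both LPfl/+ livers then lay above both remaining controls for 8 members (22.6% of all genes) and below them for 2 (24.4%). Against LP+/+ replicate 1 alone, the only control of the second series, 27 of 29 were lower, with a median of -1.05. That fit has 1 control liver, whose spread was assumed to be that of the LPfl/+ pair.

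LP245/+ and LPfl/+ were compared without the controls in the contrast. No series holds both genotypes, so the genotype and the series cannot be told apart here. By edgeR, 0 of 29 members passed the cutoff (0% of all genes) and 1 had an unadjusted p below 0.05 (8.51% of all genes). DESeq2 called 1 member, and 54 of 30240 genes. The signs were mixed, with 12 of 29 lower in LP245/+ and a median log2 fold change of 0.04. With the series as a covariate, which links the genotypes through LP+/+ replicate 1, the median was 1.19 and 1 member was below 0. In the fit without the covariate, the member with the smallest p was Aacs (ENSMUSG00000029482.4, chr5:125475814-125517410, plus strand), which links ketone bodies to sterol and fatty acid synthesis. Aacs was measured at 2492, 1406 and 947 normalized counts in LP+/+ replicates 1 to 3, at 860.2 and 984 in LPfl/+ and at 2353, 2183 and 2046 in LP245/+. The 3 LP245/+ livers lay above both LPfl/+ livers and above LP+/+ replicates 2 and 3, and LP+/+ replicate 1 lay above them all. Its log2 fold change was 1.25 (SE 0.32, edgeR adjusted p = 0.362), and the adjusted p was 0.00577 with DESeq2 and 0.0122 with edgeR without LP+/+ replicate 1.

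Stard4 followed with a log2 fold change of 0.38 (SE 0.22, edgeR adjusted p = 0.693). For Stard4, normalized counts of 2954, 1787 and 1739 in LP+/+ (replicates 1, 2 and 3) stood beside 2163 and 2073 in LPfl/+ and 3038, 2309 and 2908 in LP245/+. Sc5d had 0.28 (SE 0.20, edgeR adjusted p = 0.750), Srebf2 0.26 (SE 0.22, edgeR adjusted p = 0.791) and Npc1 0.16 (SE 0.12, edgeR adjusted p = 0.769). Without overlap, Aacs, Hsd17b7, Sc5d and Stard4 were higher in LP245/+ (12.1% of all genes were) and Sqle was lower (13.3%). Among the 7 livers other than LP+/+ replicate 1, LP245/+ replicate 3 was the highest for 16 of the 29 members and LP+/+ replicate 3 was the lowest for 16.

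The neighbouring pathways differed in how far they stood apart in LP+/+ replicate 1. In the series term fitted by edgeR, the median log2 fold change was 0.04 over 8 genes of SREBP processing and sterol-regulated degradation. For LXR and sterol efflux the median over 8 genes was -0.09. It was 0.50 over 15 genes of SREBP1 and lipogenesis and 0.62 over 4 of bile acid synthesis. For 10 of the 15 lipogenesis genes and 3 of the 4 bile acid genes, LP+/+ replicate 1 was the highest liver (14.0% of all genes). Acss2, the cytosolic acetyl-CoA synthetase of the lipogenesis list, had a log2 fold change of 1.68 (SE 0.22) in the series term. Its normalized counts were 7724, 2679 and 2132 in LP+/+ replicates 1, 2 and 3, 3469 and 2710.2 in the LPfl/+ livers and 3782, 2872 and 3884 in the LP245/+ livers. Cyp7b1, an oxysterol hydroxylase of the bile acid list, had 1.69 (SE 0.29) in that term. In LP245/+ compared with LPfl/+, all 15 lipogenesis genes were higher by sign (median 0.43) and 8 had an unadjusted p below 0.05 (8.51% of all genes), but 0 passed the cutoff by edgeR.

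**Figure D4:**
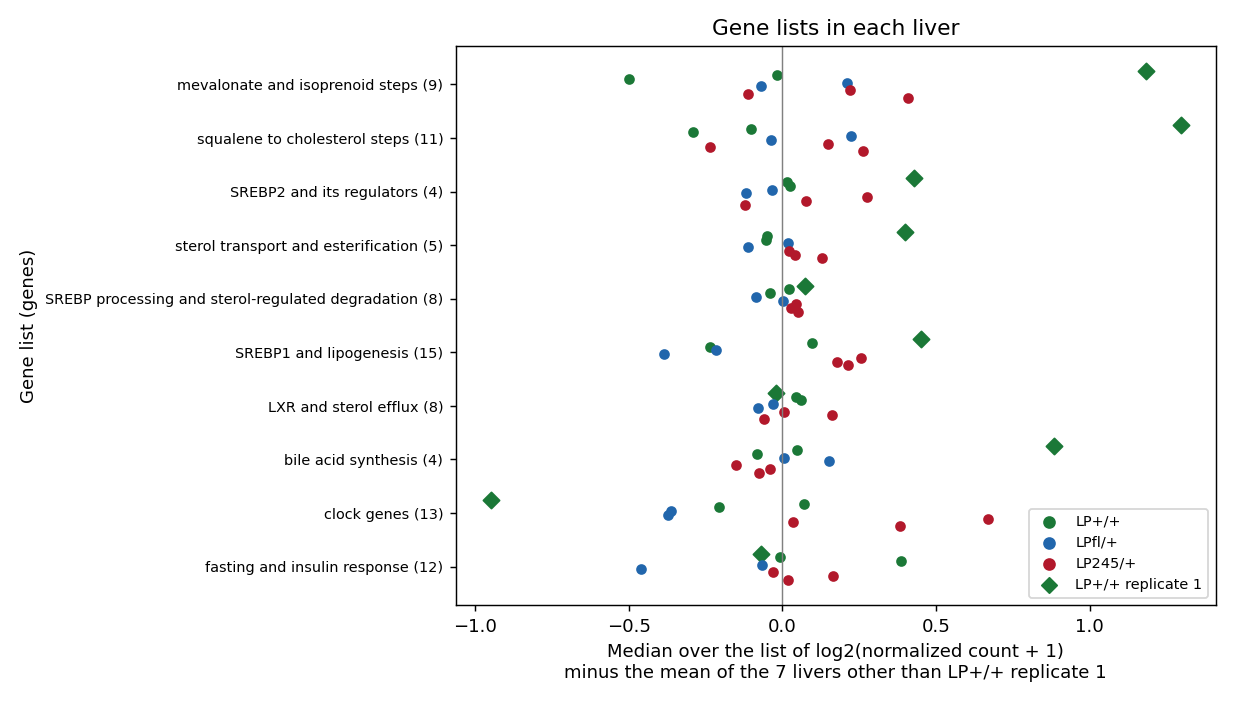
For each gene list, the points are the 8 livers, coloured by genotype, at the median over the list of log2(normalized count + 1) minus the mean of the 7 livers other than LP+/+ replicate 1, which is drawn as a diamond. The diamond lies at 1.30 for the genes from squalene to cholesterol, at 0.07 for SREBP processing and at -0.95 for the clock genes. The numbers in brackets are the genes of each list.

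Some genes of other daily and metabolic programmes were at an extreme in the same liver. Of 13 clock genes, LP+/+ replicate 1 was the lowest liver for 6 and the highest for 3, while it was the lowest for 12.5% and the highest for 14.0% of all genes, and the median in the series term was -0.78. Nr1d1, a clock repressor, had a log2 fold change of -2.45 (SE 0.39) in that term. The LP+/+ livers had 148, 902 and 722 normalized counts of Nr1d1 in replicate order, the LPfl/+ livers 462 and 297 and the LP245/+ livers 1764, 1156 and 1025. Dbp, a clock output factor, had -2.79 (SE 0.69). Dbp was measured at 23.2, 221 and 102 normalized counts in LP+/+ replicates 1 to 3, at 64.8 and 51.5 in LPfl/+ and at 667, 267 and 529.5 in LP245/+. LP+/+ replicate 1 was the lowest and the LP245/+ livers were the highest for both genes. In LP245/+ compared with LPfl/+, 10 of the 13 clock genes had an unadjusted p below 0.05 (8.51% of all genes) and 0 passed the cutoff by edgeR. Of 12 genes of the fasting and insulin response, LP+/+ replicate 1 was the highest liver for 4, G6pc and Irs2 among them, and the lowest for 3. By sign in the series term, 5 of the 12 were higher and 7 lower. Among the lower were Cyp4a14 and Cyp4a10, fatty acid hydroxylases driven by PPARα, with log2 fold changes of -6.71 (SE 0.63) and -4.29 (SE 0.45). For Cyp4a14, normalized counts of 118, 8609.8 and 16177 in LP+/+ (replicates 1, 2 and 3) stood beside 2298 and 1185 in LPfl/+ and 5535, 7736 and 4975 in LP245/+. Cyp4a14 was lower in LP+/+ replicate 1 than in each of the other livers. For Nr1d1, Dbp, Cyp4a14 and Cyp4a10, both LPfl/+ livers of the same series also lay below every liver of the first series. The part of the clock and fasting genes in the values of the sterol genes was not tested.

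The mixture of cells was also read beside these values. In LP+/+ replicate 1 the summed normalized counts were 2741430 for the 5 hepatocyte markers (2730762 to 3968641 in the other livers), 7696 for 6 Kupffer cell and macrophage markers (6597 to 10888), 14935 for 6 stellate cell markers (12199 to 15837), 8693 for 5 endothelial markers (7068 to 11421), 167 for 4 cholangiocyte markers (105 to 204) and 576 for 5 lymphocyte markers (480.0 to 805). Each sum of LP+/+ replicate 1 lay inside the range of the other 7 livers. Of 4 markers of intestine or pancreas, Pnlip had at most 1 count, Vil1 between 5.05 and 11.6 and Cela1 between 583 and 1039, and Fabp2 had between 2221 and 5092 and was lowest in LP+/+ replicate 1. By edgeR, 0 markers of these lists passed the cutoff in the 3 genotype comparisons. An unadjusted p below 0.05 was found for 0 (LP245/+ against LP+/+), 0 (LPfl/+ against LP+/+) and 3 (LP245/+ against LPfl/+).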

How the data were processed

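RNA of 8 livers was sequenced as 76-base paired-end reads from stranded total RNA libraries. The authors deposited whole-number counts per gene, not normalized, made with STAR on GRCm38 with a GENCODE annotation. All 8 columns matched a sample label. Symbols, positions and exon lengths were taken from GENCODE M21 by gene identifier without its version, which left 259 of 49585 identifiers unnamed. The counts of the 8 livers were fitted together with edgeR 4.0.16 under R 4.3.3 (quasi-likelihood F test, TMM, filterByExpr by genotype), adjusted by Benjamini-Hochberg over 16496 genes, with DESeq2 1.42.0 as an alternative and for size factors. The members and lists were chosen with earlier results of these data known. All 30 genes are accounted for, and fold and SE were printed for the 4 members with the smallest p in each comparison and for Srebf2, with adjusted p in the genotype comparisons. Adjusted p-values of the series term, an arm of 1 liver, were left out. Its calls are counted in the Results as a description of that liver, and they enter the closing tally of alternatives. Further genes with such values, chosen after seeing them, are Aacs, Stard4 and Sqle without LP+/+ replicate 1. No source pairs the mice, and p-values measure only the spread between these livers. Floors cover counting error only. Fits were tested on simulated counts. Alternatives were other normalizations and filters, only the groups compared, no fold cutoff, a block for replicate numbers, the library series as a covariate or 1 series alone, and leaving out each liver. Figures were drawn with matplotlib 3.10.9.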

Additional observations from a re-analysis of the deposited data

How the results depend on the processing

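The sign of the genotype comparisons with LP+/+ depended on LP+/+ replicate 1, and the cause was not tested. In LP245/+ against LP+/+, the median log2 fold change of the sterol genes was 0.28 with the series as a covariate, 0.27 with 1 series only, and between -0.42 and 0.28 with 1 liver left out, and the members below 0 were 2, 3 and between 2 and 23. Sqle was then at 0.70, 0.69 and between -2.32 and 0.70, Hmgcs1 at 0.000259 with the covariate and between -0.76 and 0.000811 with 1 liver left out, and Srebf2 at 0.12, 0.11 and between -0.24 and 0.12, with 0.05 without LP245/+ replicate 3 and 0.12 without LP+/+ replicate 1. In LPfl/+ against LP+/+ the covariate gave a median of -1.04 and 1 series only a median of -1.05. Leaving out 1 liver gave medians from -0.58 to 0.16 and 7 to 28 members below 0.

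In LP245/+ against LPfl/+ 1 member, Aacs, was called with DESeq2 (log2 fold change 1.25, with 54 of 30240 genes called) and with no filter (1.25, 122 of 30240). Aacs was also called with only the groups compared (1.26, 51 of 16074) and without LP+/+ replicate 1 (1.25, 47 of 16311). With the covariate its log2 fold change was 2.34. Leaving out 1 liver gave 0 to 1 calls, medians from -0.045 to 0.18, and 4 to 16 members below 0, with 4 without LPfl/+ replicate 1 and 5 without LP245/+ replicate 2. The median was -0.027 with library totals alone and 1.19 with the covariate, which left 1 member below 0.

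For the series term, 1 member was below 0 with library totals alone. Leaving out 1 liver gave medians from 1.06 to 1.28 and 2 to 3 members below 0, with Msmo1 at 1.73 without LP+/+ replicate 3. The term could not be fitted without LP+/+ replicate 1. Neither the labels nor the study pair the livers, and the correlations of same-numbered livers lay between -0.08 and 0.03. With a replicate block, Msmo1 was at 1.72 and Dhcr7 at 1.16 in the series term, and LP245/+ against LPfl/+ had 7 members below 0. The block left 0 members called in the 3 genotype comparisons, with a median of -0.15 in LP245/+ against LP+/+. Over the alternatives, 178 summary values stayed near the main value, 21 moved and 6 reversed sign. A count stayed if it was equal or within a fixed ratio of the main count. A median stayed if it kept its sign and shifted by less than 0.453, a pooled SD between livers of a genotype. Of the values of named genes, 300 kept their sign and their side of the cutoff. Of the rest, 9 reversed, 5 passed the cutoff only there and 3 no longer did.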
